A study of Homo sapiens with 9 samples.

Results

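The axon guidance ligands and receptors examined here are the semaphorins, plexins, neuropilins, ephrins, EPH receptors, netrins, UNC5 receptors, SLIT ligands and ROBO receptors. They were chosen by name: a probe set, the group of array probes that reads 1 transcript, counted where its annotation gave a single gene symbol of these families, and the brightest probe set by mean log2 intensity over all 9 arrays stood for its gene. This gave 56 genes with 92 probe sets, of 11963 genes and 22215 probe sets tested. The Human RefSeq annotation (GRCh38.p14) lists 70 protein-coding genes with such names, and the other 14, among them ROBO2, EPHB2, UNC5A, UNC5D and NTN4, were not analysed here. Single-channel arrays measured total RNA described as that of IMR-32, a human neuroblastoma cell line in which the oncogene MYCN is amplified. There were 3 arrays of a line with stable expression of a 69-kDa form of ChAT (choline acetyltransferase, the enzyme that makes acetylcholine), 3 of a line with stable expression of an 82-kDa form and 3 labelled wild type, the study's controls. The lines are called 69-kDa cells and 82-kDa cells. Because each form had a line of its own, form and line cannot be told apart. The sources used here do not give the promoter, the vector or whether a line was 1 clone.

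Growing axons steer by secreted and membrane-bound cues that attract or repel the growth cone. SLIT proteins repel through ROBO receptors, netrins attract or, through UNC5 receptors, repel, class 3 semaphorins act through neuropilins with plexins while membrane-bound semaphorins bind plexins directly, and ephrins signal in both directions with the EPH receptor tyrosine kinases. In the embryo many of these genes guide the migration of neural crest cells, from which the sympathetic lineage and neuroblastoma arise.

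MYCN went against the label of the wild-type arrays. MYCN had intensities of 4181, 5567 and 5947 in 69-kDa cells and 4301, 6025 and 6118 in 82-kDa cells, against 62.5 to 120.2 on those arrays, so that its mean there was 1.76% of its mean over the lines. The 11 neuroblastoma markers measured summed to 10354 to 15865 in 69-kDa cells and 12446 to 18466 in 82-kDa cells, against 1626 to 1846 on the arrays labelled wild type. The 8 epithelial markers summed to 377 to 439 and 391 to 458 in the lines, where 4 of them lay below the arrays' lowest lower quartile (an intensity of 55.9) on every array, against 5566 to 6306 on the arrays labelled wild type. EPCAM, an epithelial adhesion molecule, read 29.7, 27.1 and 26.4 in 69-kDa cells and 27.9, 29.1 and 24.7 in 82-kDa cells, against 493, 1121 and 1209 on the arrays labelled wild type. The 9 mesenchymal markers summed to 4906 to 7956 and 4877 to 6932 in the lines against 10407 to 11049, and the Schwann or glial and the immune markers lay between 268 and 408 in every group. Of the mesenchymal markers 1 was called higher and 1 lower in 69-kDa cells, and 1 higher and 2 lower in 82-kDa cells. These are 22.2% and 33.3% called, beside 29.4% and 30.3% of all genes, so their lower sum does not describe the set. The part of these marker differences in the results that follow was not tested, and a ChAT effect and a contrast of IMR-32 with another cell line cannot be told apart on these arrays. In RNA of many cells, fewer cells of a type cannot be told apart from less RNA per cell. CHAT itself read 256, 175 and 177 in 69-kDa cells and 1066, 423 and 1067 in 82-kDa cells, against 148, 125 and 114 on the arrays labelled wild type, although it is not known whether its probe set lies within the constructs. Against that label CHAT was called in 82-kDa cells (log2 difference 2.61, limma adjusted p = 0.00057) but not in 69-kDa cells (0.64, adjusted p = 0.23). Between the lines it was not called (1.97, adjusted p = 0.70). Without replicate 2 of 82-kDa cells the last 2 comparisons passed (adjusted p = 0.028 and 0.045). Replicate 1 of each group deviated together from replicates 2 and 3, so differences within both sets are given where they bear on a call.

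Set against the arrays labelled wild type, SLIT2 fell 10.9-fold in 69-kDa cells and 8.97-fold in 82-kDa cells, EFNB2 9.39-fold and 8.23-fold, EPHA7 about 7.60-fold and 6.92-fold, and NRP1 3.65-fold and 3.51-fold. By brightest probe sets, SLIT3 was the one gene that rose by 2-fold or more in both, at 2.67-fold and 3.16-fold. Other probe sets of NRP2 (up to 3.90-fold and 5.38-fold) and UNC5B (2.85-fold and 2.44-fold) did so too. In 69-kDa cells 6 of the 56 genes rose and 10 fell (limma, adjusted p under 0.05 over all probe sets), which is 28.6% called, where 29.4% of all 11963 genes were called by their brightest probe set (11.7% higher, 17.7% lower) and 26.2% of all probe sets. In 82-kDa cells 8 rose and 10 fell, or 32.1%, where 30.3% of all genes (11.8% higher, 18.5% lower) and 26.8% of all probe sets were called. These shares lie near the background, so the number of axon guidance genes that moved is not a result about them. Their median log2 difference was 0.10 in 69-kDa cells and 0.09 in 82-kDa cells, beside 0.05 over all genes in each, and the median size was 0.24 and 0.29, beside 0.23 and 0.25. Both comparisons use the same 3 wild-type arrays, so their calls are not independent of each other. Groups did not overlap for 27 genes (48.2%, background 47.2%) in 69-kDa cells and 32 (57.1%, background 45.7%) in 82-kDa cells, which included every called gene. The count of 8 higher genes in 82-kDa cells was 5 without replicate 1 of that line, or without replicate 2 or 3 of the wild-type label, and the count of 6 in 69-kDa cells was 9 without replicate 1 of 82-kDa cells, all limma fits on 8 arrays. In these 82-kDa fits 28.6%, 30.4% and 26.8% of the 56 were called in either direction, beside 30.7%, 24.2% and 24.1% of all genes. In that 69-kDa fit both shares were 33.9%.

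**Figure D1:**
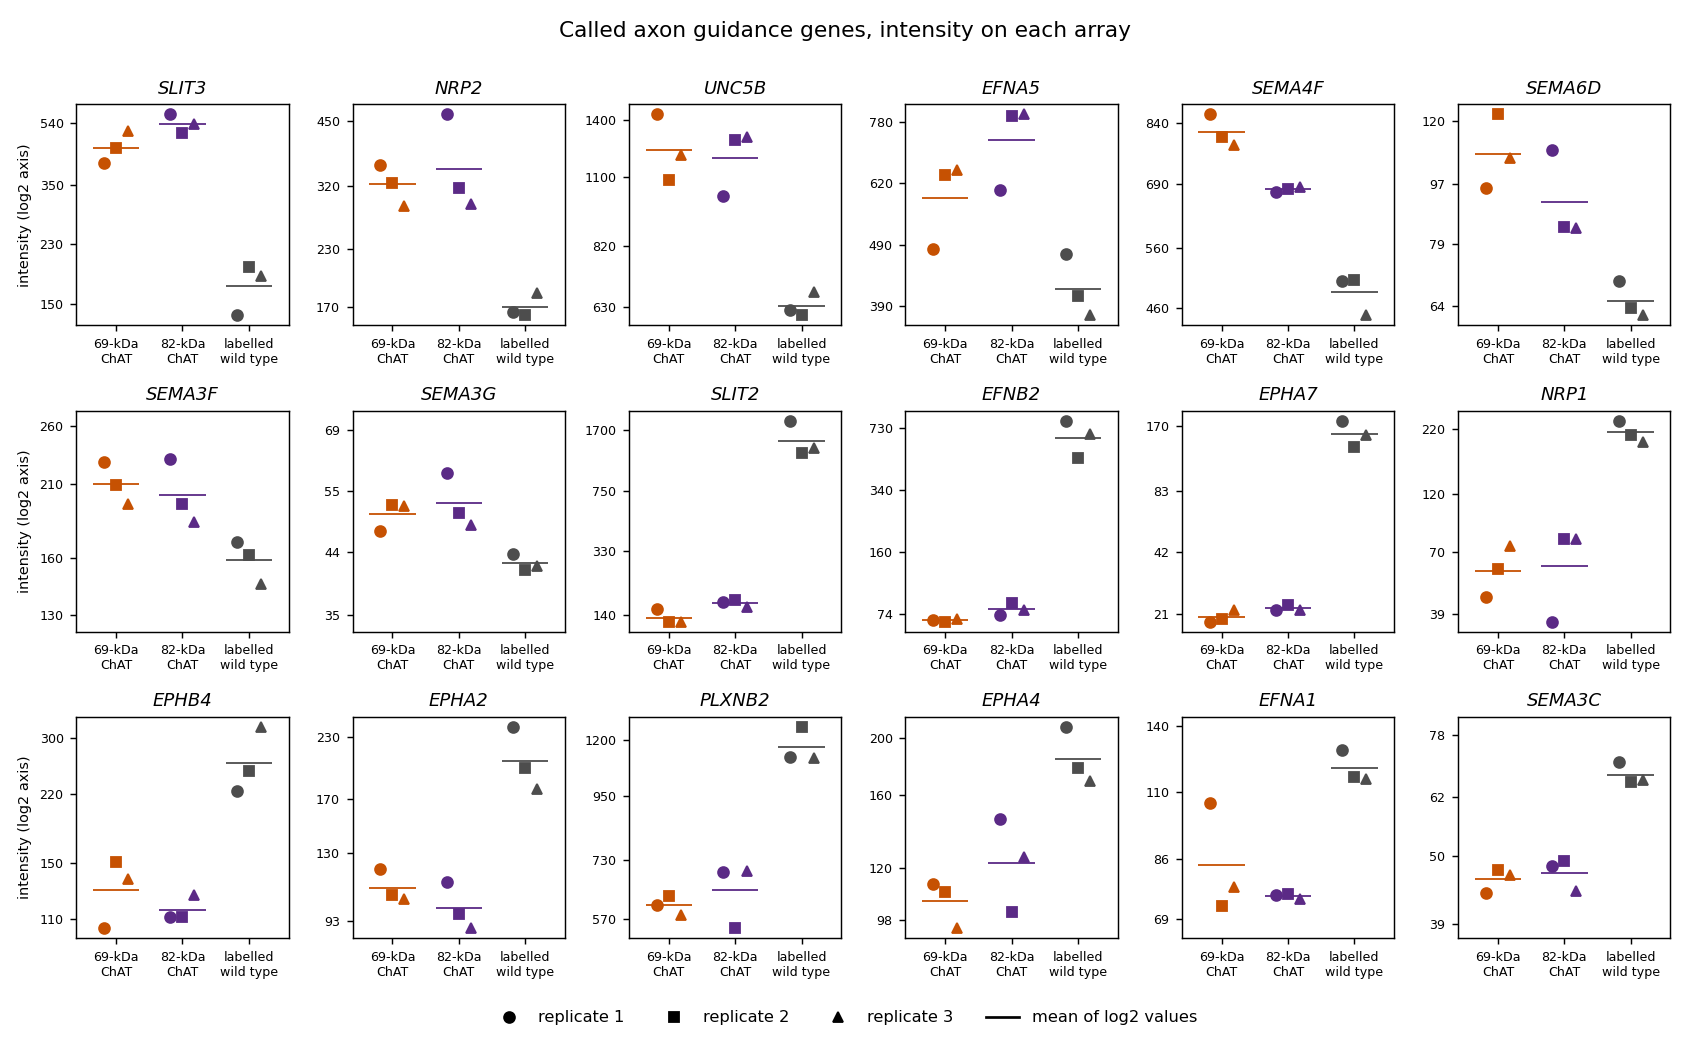
Intensity (log axis) on each of the 9 arrays for the 18 axon guidance genes called in either comparison with the arrays labelled wild type. Points are single arrays, 3 per group, marked by replicate number, lines are means of log2 values, and each gene has its own scale. SLIT2, EFNB2 and EPHA7 show the widest gaps, with all 6 arrays of the lines below all 3 labelled wild type, and SLIT3, NRP2 and UNC5B lie higher in the lines.

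The 3 SLIT genes, which encode secreted repellents read by ROBO receptors, did not move together. SLIT2 (GRCh38.p14, chromosome 4, 20251905 to 20620561, plus strand) had intensities of 151, 128 and 128 in 69-kDa cells and 166, 170.4 and 155 in 82-kDa cells, against 1922, 1238 and 1332 on the arrays labelled wild type. Every array of both lines lay far below every array labelled wild type. SLIT2 was 10.9-fold lower in 69-kDa cells (log2 difference -3.44, SE 0.16, limma adjusted p = 1.4e-06) and 8.97-fold lower in 82-kDa cells (-3.16, SE 0.16, adjusted p = 2.3e-06). SLIT3 (chromosome 5, 168661740 to 169301139, minus strand) went the other way, with 407, 452 and 510.5 in 69-kDa cells and 575, 505 and 538 in 82-kDa cells, against 139, 195 and 183 on the arrays labelled wild type. All arrays of both lines lay above all arrays labelled wild type. The increase was 2.67-fold in 69-kDa cells (1.42, SE 0.14, adjusted p = 0.00012) and 3.16-fold in 82-kDa cells (1.66, SE 0.14, adjusted p = 4.7e-05). A second SLIT3 probe set gave larger differences, 1.87 and 2.40, and the last one smaller ones, 0.21 (adjusted p = 0.17) and 0.44 (adjusted p = 0.0094).

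SLIT1, the remaining ligand, read 469, 221 and 188 in 69-kDa cells and 490.3, 231 and 214 in 82-kDa cells, against 195, 158 and 157 on the arrays labelled wild type. Replicate 1 of each line stood well above the other arrays of that line, and the log2 differences of 0.67 and 0.77 did not pass (adjusted p = 0.27 and 0.19). With the replicate number as a block they did (adjusted p = 0.032 and 0.018), being 1.27 and 1.33 between the replicate 1 arrays and 0.37 and 0.50 in replicates 2 and 3. None of the 3 ROBO receptors passed. ROBO1, the brightest, had 335, 588 and 674 in 69-kDa cells and 394, 779 and 919 in 82-kDa cells, against 674, 744 and 802 on the arrays labelled wild type. The groups overlapped, and the log2 differences were -0.53 (SE 0.34, adjusted p = 0.31) in 69-kDa cells and -0.17 (SE 0.34, adjusted p = 0.74) in 82-kDa cells. ROBO3 and ROBO4 differed by at most 0.21 on the log2 scale.

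SLIT2 and SLIT3 each hold a hairpin of the microRNA miR-218 on their own strand within the gene span, MIR218-1 in SLIT2 (GRCh38.p14, chr4:20528275-20528384) and MIR218-2 in SLIT3 (chr5:168768146-168768255). Their sequences are shown because the host transcripts moved in opposite directions while the main mature product of both hairpins is identical. From RefSeq, 5′ to 3′, with the mature miR-218-5p in capitals in the hairpins and its seed (bases 2 to 8) in capitals in the mature form, they read:
MIR218-1: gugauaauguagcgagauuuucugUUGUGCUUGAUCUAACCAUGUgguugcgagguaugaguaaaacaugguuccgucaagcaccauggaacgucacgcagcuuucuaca
MIR218-2: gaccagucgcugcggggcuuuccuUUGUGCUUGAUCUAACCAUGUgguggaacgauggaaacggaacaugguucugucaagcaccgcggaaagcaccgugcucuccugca
hsa-miR-218-5p: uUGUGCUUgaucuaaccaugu
The arrays did not measure the microRNA, so nothing is known here of its level. In all, 7 of the 56 genes hold 8 annotated hairpins in their span, that of ROBO1 on the opposite strand.

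The promoter windows of EFNB2, SLIT2 and SLIT3 (250 bases before to 50 after the start, RefSeq, GRCh38.p14) are shown because EFNB2 and SLIT2 fell while SLIT3 rose. They were searched on both strands for the GC box GGGCGG and for the E-box CACGTG, a palindrome that MYCN is known to bind. Capitals mark the GC boxes found. They are EFNB2 (chr13:106535613-106535912, minus strand), SLIT2 (chr4:20251655-20251954, plus strand) and SLIT3 (chr5:169301090-169301389, minus strand):
EFNB2: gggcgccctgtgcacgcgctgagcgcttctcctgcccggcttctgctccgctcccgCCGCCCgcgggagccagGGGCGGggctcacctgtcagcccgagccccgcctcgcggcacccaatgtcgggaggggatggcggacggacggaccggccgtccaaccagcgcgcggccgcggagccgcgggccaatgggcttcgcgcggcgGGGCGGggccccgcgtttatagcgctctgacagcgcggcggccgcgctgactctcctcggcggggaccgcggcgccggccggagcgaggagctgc
SLIT2: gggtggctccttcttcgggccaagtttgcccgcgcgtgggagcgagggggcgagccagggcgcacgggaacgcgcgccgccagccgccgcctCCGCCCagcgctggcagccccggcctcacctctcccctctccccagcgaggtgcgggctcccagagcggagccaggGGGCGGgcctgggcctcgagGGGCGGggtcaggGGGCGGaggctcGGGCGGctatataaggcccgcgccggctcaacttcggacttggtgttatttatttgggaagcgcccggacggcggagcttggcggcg
SLIT3: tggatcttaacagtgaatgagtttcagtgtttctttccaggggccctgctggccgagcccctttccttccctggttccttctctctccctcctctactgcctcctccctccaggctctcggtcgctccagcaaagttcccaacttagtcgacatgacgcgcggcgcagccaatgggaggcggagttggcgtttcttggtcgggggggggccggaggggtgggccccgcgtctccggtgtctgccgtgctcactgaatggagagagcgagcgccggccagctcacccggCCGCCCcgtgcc
EFNB2 holds 3 GC boxes, SLIT2 holds 5 and SLIT3 holds 1, and none holds CACGTG in this window. Among all 35116 promoters of the RefSeq list 45.0% hold a GC box, 15.8% hold 3 or more, 5.14% hold 5 or more and 7.26% hold the E-box. Of the 48 axon guidance genes with a promoter in that list, 43 hold a GC box and 3 hold the E-box in 1 promoter or more. These counts are of genes, which can have several promoters, whereas the shares above are of promoters. The counts and the shares therefore cannot be compared, and the share over all genes was not computed. CpG dinucleotides numbered 49, 36 and 22 in EFNB2, SLIT2 and SLIT3, against a median of 14. Such matches describe letters, not binding.

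Neither netrin passed. NTN1, the best-known member, differed by -0.03 and -0.01 on the log2 scale in the 69-kDa and 82-kDa lines, and NTN3, the brighter, by 0.12 and 0.10, with both genes between 39.5 and 62.7 in intensity, at the dim end of the arrays. UNC5B, a netrin receptor that mediates repulsion, rose. It read 1433, 1084 and 1208 in 69-kDa cells and 1011, 1284 and 1301 in 82-kDa cells, against 623, 609 and 674 on the arrays labelled wild type. Every array of both lines lay above every array labelled wild type. The increases were 1.94-fold (0.96, SE 0.13, adjusted p = 0.00079) and 1.88-fold (0.91, SE 0.13, adjusted p = 0.0011), and its other probe set passed too (1.51 and 1.29). UNC5C, dim at 43.0 to 63.1, did not pass (-0.21 and -0.29). Of the other netrin receptors, DCC was not called (0.23 and 0.20) and NEO1 (neogenin) fell 1.39-fold in 69-kDa cells and 1.39-fold in 82-kDa cells (adjusted p = 0.004 and 0.0038).

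Of the 18 semaphorins, 3 rose and 1 fell in 69-kDa cells, and 4 rose and 1 fell in 82-kDa cells. These are 22.2% and 27.8% called, beside 29.4% and 30.3% of all genes. SEMA4F, a membrane-bound semaphorin and the brightest of the family, read 864, 802 and 782 in 69-kDa cells and 670.4, 678 and 683 in 82-kDa cells, against 503, 504 and 449 on the arrays labelled wild type. The 3 groups did not overlap with each other. It was 1.68-fold higher in 69-kDa cells (0.75, SE 0.08, adjusted p = 0.00015) and 1.40-fold higher in 82-kDa cells (0.48, SE 0.08, adjusted p = 0.0019), and its other probe set passed in both (0.59 and 0.45). SEMA6D, also membrane-bound, read 95.6, 123 and 106 in 69-kDa cells and 109, 83.8 and 83.4 in 82-kDa cells, against 69.8, 63.7 and 62.0 on the arrays labelled wild type. It rose 1.65-fold (adjusted p = 0.0037) and 1.40-fold (adjusted p = 0.025), though the call in 82-kDa cells was lost without replicate 1 of that line or without replicate 2 or 3 of the wild-type label (log2 differences 0.36, 0.47 and 0.45; adjusted p = 0.052, 0.077 and 0.084).

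Class 3 semaphorins are secreted and bind neuropilins. SEMA3F, a repellent read by NRP2, had 228, 209 and 195 in 69-kDa cells and 230.3, 195 and 183 in 82-kDa cells, against 169.7, 162 and 146 on the arrays labelled wild type. It passed, at 0.41 (adjusted p = 0.025) and 0.35 (adjusted p = 0.048), but its other 2 probe sets gave -0.08 and 0.07 in 69-kDa cells and -0.04 and 0.10 in 82-kDa cells and did not pass. The SEMA3F call was lost in 5 of the alternative settings in 69-kDa cells and in 12 in 82-kDa cells, 4 and 7 of them by leaving out a single array. In 69-kDa cells these were replicates 1 and 2 of that line and replicates 2 and 3 of the wild-type label (log2 0.35 to 0.42, adjusted p = 0.062 to 0.094), and in 82-kDa cells every array except replicate 1 of 69-kDa cells and replicate 3 of 82-kDa cells (log2 0.25 to 0.40, adjusted p = 0.06 to 0.16). SEMA3G, another class 3 member, was dim, with 47.5, 52.4 and 52.0 in 69-kDa cells and 58.9, 50.8 and 48.7 in 82-kDa cells, against 43.6, 41.2 and 41.9 on the arrays labelled wild type, and passed in 82-kDa cells (0.32, adjusted p = 0.031) but not in 69-kDa cells (0.26, adjusted p = 0.068). Its 82-kDa call was lost without any 1 of the same 7 arrays (log2 0.24 to 0.34, adjusted p = 0.05 to 0.096), and 69-kDa cells passed without replicate 1 of 82-kDa cells (adjusted p = 0.026). SEMA3C, a ligand of both neuropilins, fell, and its probe sets differed in size. The brightest read 43.6, 47.4 and 46.7 in 69-kDa cells and 48.1, 49.2 and 44.0 in 82-kDa cells, against 70.5, 65.6 and 66.0 on the arrays labelled wild type, which is about 1.47-fold and 1.43-fold lower (adjusted p = 0.00087 and 0.0012). The other read 20.6, 19.5 and 20.2 in 69-kDa cells and 20.2, 19.9 and 19.2 in 82-kDa cells, against 123, 173 and 164 on the arrays labelled wild type, about 7.56-fold and 7.67-fold lower (adjusted p = 7.9e-07 and 8.1e-07), with the lines at the arrays' lower end. The remaining 13 semaphorins lay between -0.24 and 0.38 in 69-kDa cells and between -0.32 and 0.37 in 82-kDa cells. A second, dim SEMA6A probe set was called lower in both, at -0.27 (adjusted p = 0.038) and -0.30 (adjusted p = 0.024).

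The neuropilins, co-receptors of class 3 semaphorins and of VEGF, moved in opposite directions. NRP1 had intensities of 45.9, 59.6 and 73.4 in 69-kDa cells and 36.3, 78.9 and 78.9 in 82-kDa cells, against 238, 209 and 196 on the arrays labelled wild type. Replicate 1 of each line was that line's lowest array, and every array of the lines stood below every array labelled wild type. NRP1 was 3.65-fold lower in 69-kDa cells (-1.87, SE 0.30, adjusted p = 0.0018) and 3.51-fold lower in 82-kDa cells (-1.81, SE 0.30, adjusted p = 0.0021). The log2 differences were -2.38 and -2.72 between replicate 1 arrays and -1.61 and -1.36 in replicates 2 and 3. A second NRP1 probe set was lower by less (-0.69, adjusted p = 0.048, and -0.50, adjusted p = 0.14), and the last, dim one gave 0.10 and 0.09. NRP2, the receptor of SEMA3F, read 357, 325 and 288 in 69-kDa cells and 465, 316 and 291 in 82-kDa cells, against 166, 163 and 183 on the arrays labelled wild type. It was 1.89-fold higher in 69-kDa cells (0.92, SE 0.17, adjusted p = 0.0037) and 2.06-fold higher in 82-kDa cells (1.04, SE 0.17, adjusted p = 0.002). Of its 4 other probe sets 3 were higher in both lines, up to 3.90-fold and 5.38-fold, and the dimmest gave -0.05 and 0.01 and did not pass.

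Of the 8 plexins, the semaphorin receptors, 1 passed in each line, or 12.5%, beside 29.4% and 30.3% of all genes. PLXNB2, a receptor of class 4 semaphorins and the brightest plexin, read 605, 626 and 578 in 69-kDa cells and 694, 548 and 697 in 82-kDa cells, against 1121, 1268 and 1114 on the arrays labelled wild type. It was 1.93-fold lower in 69-kDa cells (-0.95, SE 0.11, adjusted p = 0.00028) and 1.81-fold lower in 82-kDa cells (-0.86, SE 0.11, adjusted p = 0.00051). Its other, dimmer probe set gave 0.18 and 0.12 and did not pass, so the call rests on 1 of 2 probe sets. The other 7 lay between 0.11 and 0.22 in 69-kDa cells and between -0.37 and 0.24 in 82-kDa cells.

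**Figure D2:**
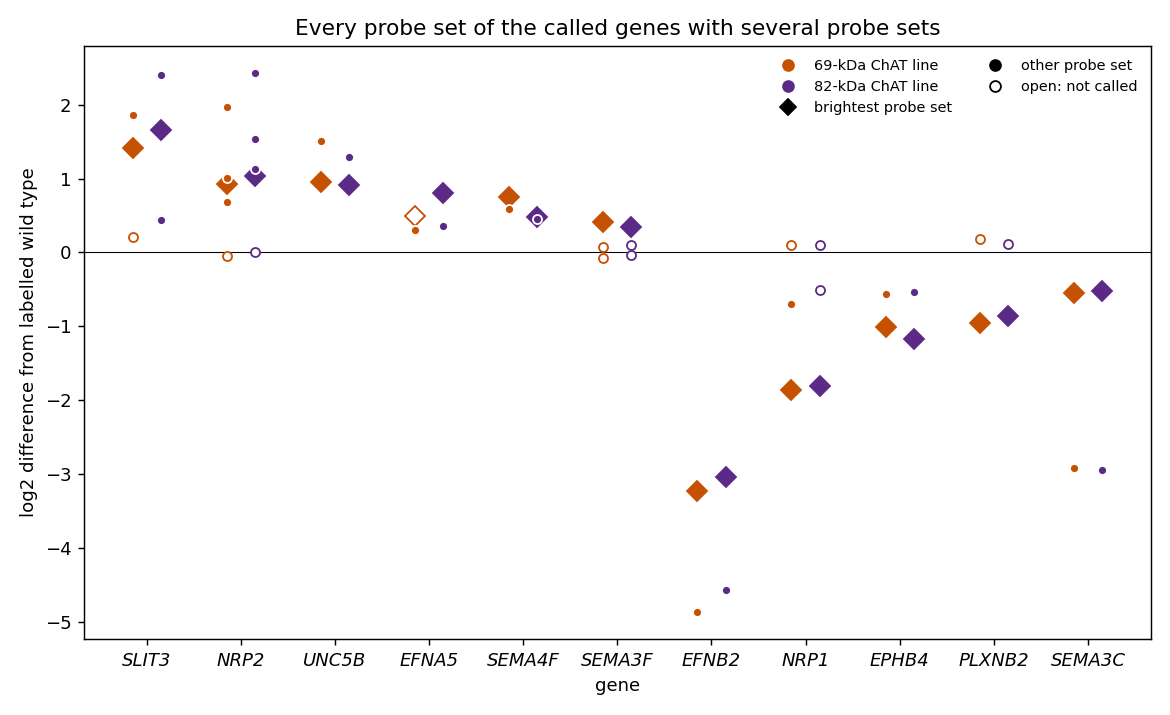
Log2 difference from the arrays labelled wild type for each probe set of the called genes that have several, with 69-kDa cells left of 82-kDa cells. Diamonds mark the brightest probe set, circles the others, and open symbols were not called. For NRP1, NRP2, PLXNB2 and SEMA3F in 69-kDa cells 1 probe set lies on the other side of 0 from the brightest, and none of those was called.

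Among the 8 ephrins, membrane-tethered ligands, EFNB2 fell most. EFNB2 (chromosome 13, 106489745 to 106535662, minus strand), the transmembrane ligand of EPHB4, read 69.5, 67.7 and 70.2 in 69-kDa cells and 73.9, 85.3 and 77.8 in 82-kDa cells, against 798, 506 and 679 on the arrays labelled wild type. Its 6 arrays of the lines spanned 67.7 to 85.3, far below the wild-type arrays. It was 9.39-fold lower in 69-kDa cells (-3.23, SE 0.15, adjusted p = 1.5e-06) and 8.23-fold lower in 82-kDa cells (-3.04, SE 0.15, adjusted p = 2.1e-06). The other probe set fell further, to 40.1, 37.1 and 36.6 and 42.6, 49.5 and 48.1 in the lines, against 801, 1276 and 1329, about 29.2-fold and 23.8-fold. EFNA1, a lipid-anchored ligand of EPHA2, had 106, 72.4 and 77.5 in 69-kDa cells and 75.2, 75.6 and 74.2 in 82-kDa cells, against 128, 116 and 115 on the arrays labelled wild type, and fell by 0.51 (adjusted p = 0.022) and 0.68 (adjusted p = 0.0057) on the log2 scale. The 69-kDa call of EFNA1 was lost without replicate 2 or 3 of that line or without any 1 array of the wild-type label (log2 -0.54 to -0.40, adjusted p = 0.05 to 0.082). EFNA5, the brightest ephrin, read 483, 639.8 and 651 in 69-kDa cells and 604, 797 and 802 in 82-kDa cells, against 474, 404 and 376 on the arrays labelled wild type. It rose 1.75-fold in 82-kDa cells (0.81, SE 0.16, adjusted p = 0.0058), whereas 69-kDa cells missed the threshold (0.49, SE 0.16, adjusted p = 0.054; 0.046 with the replicate block). It passed in 69-kDa cells without replicate 1 of either line (adjusted p = 0.017 without that of 69-kDa cells and 0.028 without that of 82-kDa cells). Its other probe set was called higher in both, at 0.30 (adjusted p = 0.048) in 69-kDa cells and 0.36 (adjusted p = 0.022) in 82-kDa cells. Between the 2 lines EFNA5 was not called (difference 0.31, 95% interval -0.05 to 0.68). The other 5 ephrins lay between -0.52 and 0.24 in 69-kDa cells and between -0.46 and 0.17 in 82-kDa cells.

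Of the 10 EPH receptors, the receptor tyrosine kinases for ephrins, 4 fell in each line and 0 rose. That is 40% called lower, beside 17.7% of all genes in 69-kDa cells and 18.5% in 82-kDa cells. With the replicate block EPHA5 was called higher in both lines and EPHB3 in 82-kDa cells. EPHA7 (chromosome 6, 93240020 to 93419559) read 19.3, 20.0 and 22.0 in 69-kDa cells and 22.0, 23.2 and 22.1 in 82-kDa cells, against 180.2, 135 and 154 on the arrays labelled wild type, the lines lying at the arrays' lower end. It was about 7.60-fold lower in 69-kDa cells (-2.93, SE 0.11, adjusted p = 4.3e-07) and about 6.92-fold lower in 82-kDa cells (-2.79, SE 0.11, adjusted p = 5.8e-07). EPHB4, the receptor of EFNB2, had 105, 151 and 137 in 69-kDa cells and 111, 111 and 126 in 82-kDa cells, against 223, 249 and 318 on the arrays labelled wild type. All arrays of the lines lay below those labelled wild type, by 2.02-fold and 2.25-fold (adjusted p = 0.002 and 0.00091), and the other probe set passed as well (-0.56 and -0.53). EPHA2, the receptor of EFNA1 and abundant in epithelia, read 120.1, 105 and 103 in 69-kDa cells and 113, 95.9 and 89.6 in 82-kDa cells, against 242, 198 and 179 on the arrays labelled wild type. Its falls were 1.87-fold and 2.07-fold (adjusted p = 0.0012 and 0.00051). EPHA4, which binds ephrins of both classes, read 113, 109.5 and 94.9 in 69-kDa cells and 145, 101 and 126 in 82-kDa cells, against 209, 178 and 169 on the arrays labelled wild type, with log2 differences of -0.81 and -0.59 (adjusted p = 0.0033 and 0.016, the 82-kDa call being lost without replicate 1 of the wild-type label, at -0.50 and adjusted p = 0.059). In both lines 6 of the 8 epithelial markers were called lower as well, and a link with these falls was not tested. EPHB3, the brightest receptor, did not pass (0.20 and 0.28; adjusted p = 0.034 in 82-kDa cells with the replicate block). The 6 receptors that were not called lay between -0.33 and 0.41 in 69-kDa cells and between -0.30 and 0.43 in 82-kDa cells, though a second EPHA3 probe set was called lower in both (-0.86 and -0.86).

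**Figure D3:**
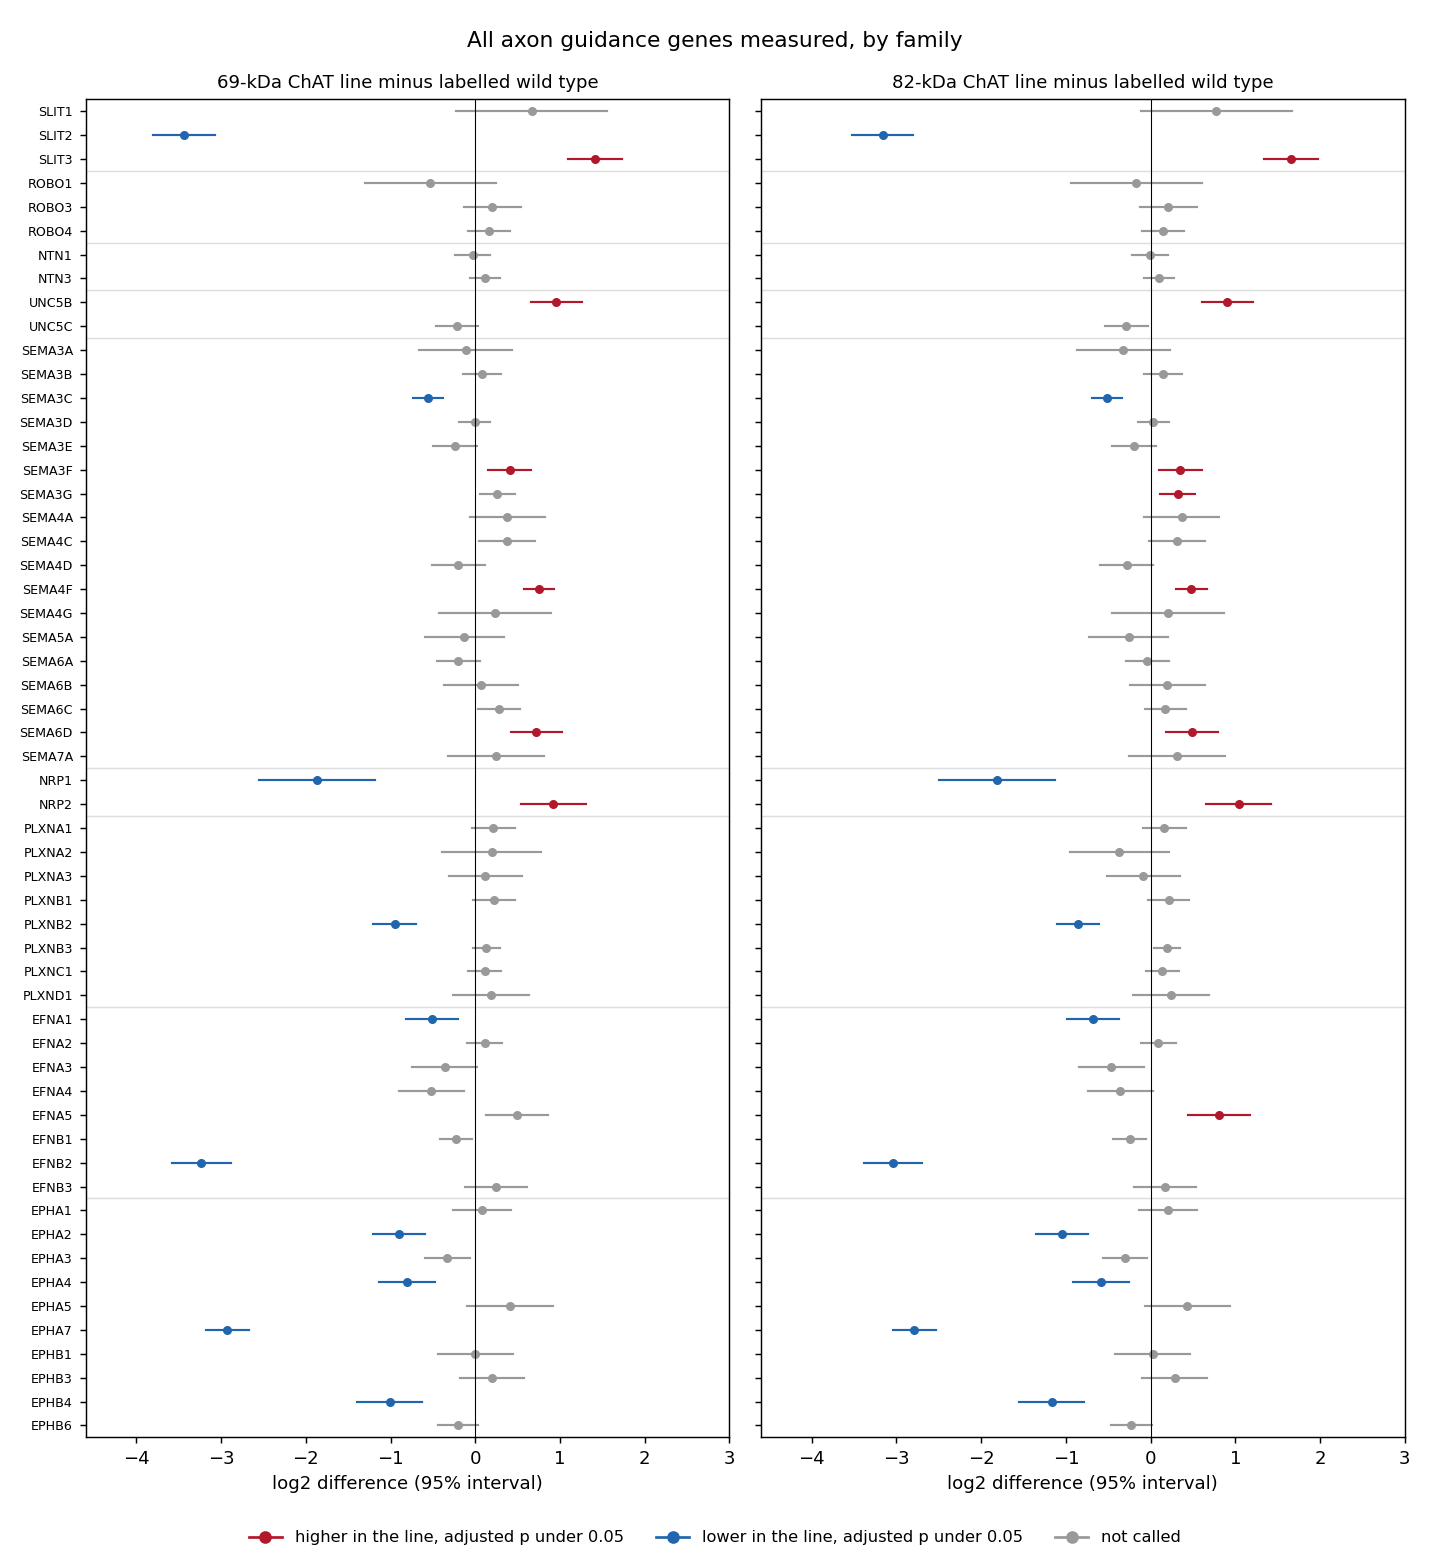
Log2 difference from the arrays labelled wild type, with its 95% confidence interval from limma, for the brightest probe set of each of the 56 genes, by family, in both lines (3 arrays per group). Red marks genes called higher, blue genes called lower and grey genes not called. The differences span -3.44 to 1.42 in 69-kDa cells and -3.16 to 1.66 in 82-kDa cells, and most genes lie near 0.

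Fitting the replicate number as a block leaves each log2 difference as it is and changes its error. With it, 14 genes rose and 14 fell in 69-kDa cells (50% called, background 40.3%, with 17.4% higher and 22.9% lower) and 15 rose and 14 fell in 82-kDa cells (51.8% called, background 42%, with 18.3% higher and 23.6% lower). All 16 and all 18 called genes were called again, and the added genes, 12 in 69-kDa cells and 11 in 82-kDa cells, included SLIT1, the ephrins EFNA3, EFNA4 and EFNB1, the receptor EPHA5 and the plexins PLXNB1 and PLXND1 in both. In replicates 2 and 3 alone, where 43.5% and 44.1% of all genes were called, the 16 and 18 genes also passed, though they had been called on arrays that include these. Each of them had the same sign between the replicate 1 arrays, which were likewise among the arrays that chose them. EFNA5 in 69-kDa cells was not called over all 9 arrays without the block (limma adjusted p = 0.054). It was called with the block (adjusted p = 0.046) and in replicates 2 and 3 alone (adjusted p = 0.00021). Its log2 difference was 0.02 between the replicate 1 arrays and 0.73 in replicates 2 and 3.

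**Figure D4:**
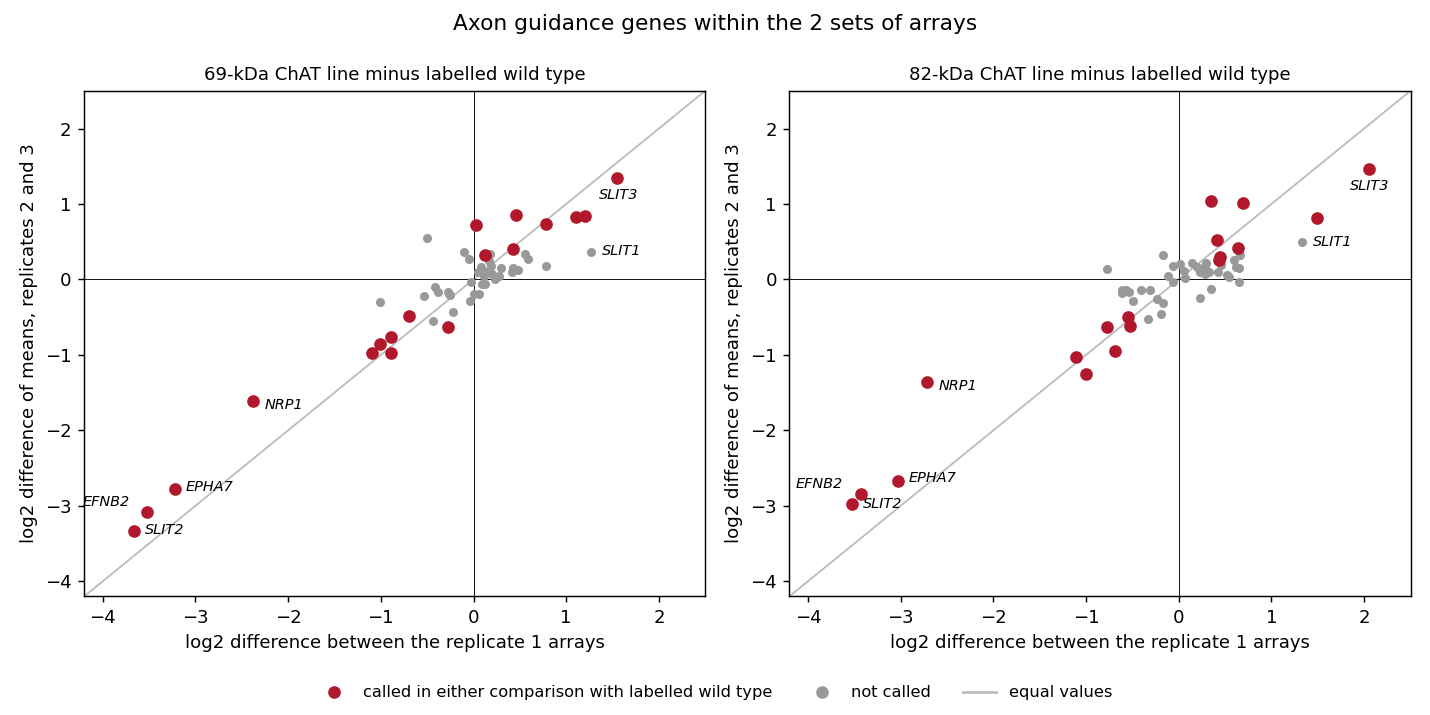
Log2 difference from the arrays labelled wild type between the replicate 1 arrays (horizontal axis) and between the means of replicates 2 and 3 (vertical axis) for the 56 genes, in 69-kDa cells (left) and 82-kDa cells (right). Red points are the 18 genes called in either comparison, grey points the others, and the diagonal marks equal values. NRP1 and SLIT1 differ more between the replicate 1 arrays.

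Values of 82-kDa cells were then set against those of 69-kDa cells, which asks whether the 2 forms of ChAT went with different levels of these genes. None of the 56 was called (limma, adjusted p under 0.05), where 0% of all probe sets were, and 0 were called with the replicate block. With array quality weights 3 were higher and 4 lower in 82-kDa cells, 12.5% beside 8.81% of all genes. At an unadjusted p under 0.05 there was 1 gene, SEMA4F, where 441 of all 11963 genes passed. By its brightest probe set SEMA4F was lower on every array of 82-kDa cells than on any of 69-kDa cells (difference -0.27, SE 0.08, 95% interval -0.45 to -0.09, unadjusted p = 0.0081, adjusted p = 1). Its other probe set gave -0.14 (limma unadjusted p = 0.23), and there the lines overlapped. Groups did not overlap for 3 genes, or 5.36%, beside 6.87% of all genes. The largest differences were those of PLXNA2, a receptor for class 3 and class 6 semaphorins, and of ROBO1. PLXNA2 had intensities of 167, 143.4 and 114 in 82-kDa cells and 134.3, 229.6 and 286 in 69-kDa cells, with 191, 178 and 173 on the arrays labelled wild type. The lines overlapped, and the difference was -0.56 (95% interval -1.15 to 0.02, unadjusted p = 0.056). It was 0.32 between the replicate 1 arrays and -1.003 in replicates 2 and 3 alone, where PLXNA2 was the 1 gene of the 56 called (adjusted p = 0.024, background 2.45%). The other, dimmer PLXNA2 probe set gave -0.07 between the lines over all 9 arrays (limma unadjusted p = 0.64). ROBO1 differed by 0.36 (95% interval -0.41 to 1.14). For 53 of the 56 genes the 95% interval lay within 1 on the log2 scale in either direction, and for 35 within 0.5. Among the 18 genes called against the wild-type label the difference between the lines ran from -0.27 to 0.31 on the brightest probe sets. Some other probe sets gave larger ones and some smaller, none of them called. A second SLIT3 probe set was higher in 82-kDa cells by 0.53 (unadjusted p = 0.00085, limma adjusted p = 0.795). For NRP2, 3 of the other probe sets were higher there by 0.45, 0.52 and 0.47 (unadjusted p = 0.011, 0.0031 and 0.041, limma adjusted p = 1, 0.98 and 1).

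Of 60 companion genes, the other receptors, adaptors and cytoskeletal effectors of the same pathways, 50 were measured. In 69-kDa cells 13 rose and 5 fell, and in 82-kDa cells 14 rose and 4 fell, 36% in each, beside the 29.4% and 30.3% of all genes. CRMP1, a collapsin response mediator that relays semaphorin signals, read 2235, 2663 and 2592 in 69-kDa cells and 2252, 2284 and 2639 in 82-kDa cells, against 264, 248 and 287 on the arrays labelled wild type. It was 9.37-fold and 8.98-fold higher (adjusted p = 1.9e-07 and 2.2e-07). DPYSL4, of the same family, was 3.53-fold and 3.85-fold higher, MICAL1, an actin-oxidising enzyme downstream of plexins, 4.001-fold and 2.77-fold, and L1CAM, a neural adhesion molecule that associates with NRP1, 6.29-fold and 4.93-fold. FLRT2, a ligand of UNC5 receptors, fell 4.42-fold in 69-kDa cells and 2.44-fold in 82-kDa cells. NRCAM, a partner of NRP2, fell 1.52-fold and 1.63-fold, and ARHGEF12, the RhoA exchange factor that binds B-class plexins, 1.59-fold and 1.67-fold, although without the probe sets that may cross-hybridise its brightest remaining one gave 0.23 and 0.21. The mean of its probe sets gave -0.16 (adjusted p = 0.12) in 69-kDa cells and -0.17 (adjusted p = 0.097) in 82-kDa cells, and with arrays centred on their medians 69-kDa cells did not pass (adjusted p = 0.056). The ARHGEF12 call was also lost in 69-kDa cells without replicate 1 or 2 of that line or replicate 2 or 3 of the wild-type label (log2 -0.74 to -0.51, adjusted p = 0.053 to 0.11), and in 82-kDa cells without replicate 1 of that line or replicate 2 of the wild-type label (log2 -0.60 to -0.58, adjusted p = 0.052 to 0.075).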

How the data were processed

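Total RNA was measured on 9 single-channel oligonucleotide arrays. Per the submitters' processing notes the deposited intensities were made with RMA (version not given in the sources used here), a method that subtracts background, normalizes arrays to each other and summarises the probes of a set. They are linear, from 14.9 to 21486, with array medians of 133.7 to 142.6, and their number limits the precision. Groups and replicate numbers come from the sample titles, and the series describes the 3 per condition as biological replicates.

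On the log2 scale, limma 3.58.1 (R 4.3.3) was run with 3 group means over 9 arrays and eBayes on 22215 probe sets, after leaving out 68 control probe sets. Tests were two-sided, and adjusted p is Benjamini-Hochberg over all 22215, with a threshold of 0.05. The platform annotation gave 1 symbol to 19065 probe sets, several to 1043 and none to 2107, and the script was tested on simulated data. Folds are called "about" where a group lay under the lowest lower quartile.

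Members, gene lists and the naming rule were chosen with earlier results of these data known. The rule names the called genes, the 2 largest differences between the lines, the brightest gene of each family, called genes whose probe sets disagree in sign, and the 4 companions with the smallest adjusted p in each direction. SLIT1, DCC, the second probe sets of EPHA3 and SEMA6A and the other uncalled genes given by value were added after their values were seen. Same-numbered arrays of different groups correlated at 0.28 to 0.57 in their deviations from group means (9 pairs, all over 0.1), and the block took the numbers to pair the arrays. Replicates 2 and 3 of different groups correlated as well, at 0.21 to 0.48 (6 pairs). These values set replicate 1 apart and do not show that replicates 2 and 3 are paired by number. The table held 0 columns from elsewhere and 0 identical array pairs.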

Additional observations from a re-analysis of the deposited data

How the results depend on the processing

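Of 34 called results of named genes, 26 kept their direction and side of the threshold in every alternative run (scaling, pseudocount of 16, dim probe sets, choice of probe set, variance model, arrays used, block and single arrays left out), and of their 669 alternatives 35 lost the call and 2 reversed. The 2 are PLXNB2 without probe sets marked _x or _s, at 0.18 in 69-kDa cells and 0.12 in 82-kDa cells. Results that were not called and reversed are PLXNA2 in 69-kDa cells without replicate 3 of that line (-0.0385; -0.0385 to 0.506 over single arrays left out) and in 82-kDa cells without those probe sets (0.0845), and ROBO1 in 82-kDa cells with array weights (0.0633), in replicates 2 and 3 alone (0.132) and without replicate 1 of that line (0.197; -0.413 to 0.197 over single arrays left out). Among the companions, ARHGEF12 gave 0.23 and 0.21 without those probe sets.

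The replicate block takes the numbers to pair the arrays, although the correlations only set replicate 1 apart. With the replicate block, genes higher numbered 14 in 69-kDa cells, against 6 without it, and 15 in 82-kDa cells, against 8, with 14 lower in each, and no gene called without it lost its call. In either direction 50% and 51.8% of the 56 were called, beside 40.3% and 42% of all genes. In replicates 2 and 3 alone 16 and 15 were higher, with 50% called in each, beside 43.5% and 44.1% of all genes. There 1 gene, PLXNA2, was lower in 82-kDa cells than in 69-kDa cells, or 1.79%, beside 2.45% of all genes. With array quality weights, estimated gene by gene because the default method did not converge, 15 and 13 were higher. In either direction 53.6% and 48.2% were called, beside 47.1% and 46.9% of all genes. With these weights 3 genes were higher and 4 lower in 82-kDa cells than in 69-kDa cells, or 12.5%, beside 8.81% of all genes. The replicate 1 arrays had weights of 0.16 to 0.40. Leaving out single arrays, 5 to 9 were higher and 9 to 12 lower in 69-kDa cells, 5 to 8 higher and 9 to 12 lower in 82-kDa cells, and 0 to 0 differed between the lines. In either direction 25% to 33.9% were called in 69-kDa cells, beside 22.9% to 33.9% of all genes. In 82-kDa cells it was 26.8% to 33.9%, beside 24.1% to 33.3%. The cause of these changes was not tested. With 3 arrays a group, and with dim genes near the arrays' background, small differences could not be resolved.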
